A study of Mus musculus with 2 samples.

Results

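The genes described are those of the mitochondrial ribosomal proteins, taken by symbol as Mrpl or Mrps followed by a number and an optional letter. They come to 78 of 20363 protein-coding genes on the autosomes for which a strand was known, 49 of them Mrpl genes, named for the large subunit, and 29 Mrps genes, named for the small subunit. Chromatin immunoprecipitation and sequencing (ChIP-seq) of the transcription factor TCF12 was carried out in CH12.LX, an immortalised line grown from a mouse B-cell lymphoma and derived from a female of strain B10.H-2aH-4bp/Wts. There was 1 group of 2 biological replicates, without treatment, mutation or a second cell type, so every comparison here is between genes and none is between conditions. A single lymphoma line stands for the cell type, and peak lists hold no expression by which that label could be checked. The optimal list of 35848 peaks on the mm10 build, which the authors kept by the irreproducible discovery rate (IDR) step on both replicates, supplied the summits and the signal unless another list is named. The signal is the peak caller's own value for each peak, on a scale that the sources do not state, and read depth is unknown.

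The mitochondrial ribosome translates the few proteins still encoded by mitochondrial DNA, all of them subunits of the respiratory chain and ATP synthase. Its RNAs come from mitochondrial DNA, but all its proteins are encoded in the nucleus, made in the cytoplasm and imported, so many separate nuclear promoters have to supply the parts of a single machine. Some of these proteins descend from bacterial ribosomal proteins and others were added in mitochondria. Activated B cells of the germinal centre raise their mitochondrial transcription and translation. TCF12, also called HEB, is a basic helix-loop-helix factor of the E protein family that reads E-boxes, short sites of the form CANNTG, and takes part in lymphocyte development.

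Nearly all of these genes carried a TCF12 summit at the start of the gene. An optimal summit lay within 5 kb of the annotated start in 77 of 78 genes, or 98.7% (95% Wilson interval 93.1 to 99.8), against 49.7% of all 20363 genes. Within 1 kb the count was 76 of 78, or 97.4% (91.1 to 99.3), against 44.3% of all genes. The intervals cover counting error only and treat genes as independent, which Mrpl46 and Mrps11 are not, since they share a peak. Among the 35530 strongest peaks of replicate 1 alone, 76 genes had a summit within 1 kb, against 45.0% of all genes, and among as many of replicate 2 alone the count was again 76, against 45.0% of all genes. The list was picked with earlier results of these data in view, so its share is given beside that of all genes without a test.

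The high share was not confined to the mitochondrial ribosome, and in other lists of housekeeping genes it was similar. Summits within 1 kb were present at 71 of 76 Rpl and Rps genes of the cytoplasmic ribosome, paralogues included (93.4%), at 33 of 35 genes of respiratory complex I (94.3%) and at 43 of 47 other genes of mitochondrial ribosome structure, assembly and translation (91.5%). Within the mitochondrial ribosome, 48 of 49 Mrpl genes and 28 of 29 Mrps genes had one. Divided by a list of bacterial counterparts, which held Mrps18c but not its relatives Mrps18a and Mrps18b, they were present at 45 of 46 listed genes. Of the remaining 32 genes, counted as of the mitochondrial ribosome alone, 31 had one. This second list holds all remaining symbols, Mrps36 included, and whether each product is part of the ribosome was not checked.

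**Figure D1:**
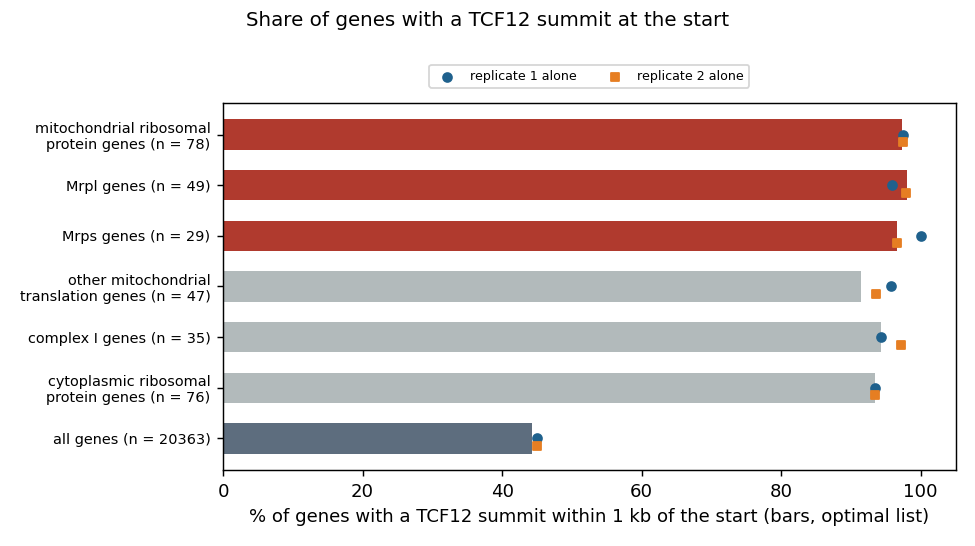
Percentage of genes with an optimal TCF12 summit within 1 kb of the start (bars), for the mitochondrial ribosomal protein genes and their Mrpl and Mrps genes (red), 3 other lists (light grey) and all genes (dark grey). Circles and squares give the same share among the 35530 strongest peaks of replicate 1 alone and of replicate 2 alone, and the listed groups all lie above 90% in the optimal list while all genes lie at 44.3%.

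The summits sat close to the start. Among the 76 genes with a summit within 1 kb, the strongest summit lay a median of 37 bp from the start, against 71 bp for the 9013 such genes of all genes. It lay within 100 bp in 60 of 76 (78.9%), against 58.9% of all genes with a summit. It was upstream in 38 of 76, against 51.8% of all genes with a summit. In 26 genes it lay from 1 to 100 bp upstream and in 34 from the start itself to 100 bp downstream. The distance was over 250 bp in 7 genes, and the whole range ran from 856 bp upstream at Mrpl41 to 682 bp downstream at Mrpl20. Mrpl20 also had a second summit at 53 bp, with a signal of 18.8 against 102 for the summit at 682 bp. These distances rest on the starts chosen. In the authors' list on the mm9 build, measured from GENCODE starts, Mrpl20 had its strongest summit 19 bp downstream and Mrpl41 174 bp upstream. The same list put those of Mrps7, Mrpl39 and Mrpl1 at 221, 472 and 626 bp downstream.

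**Figure D2:**
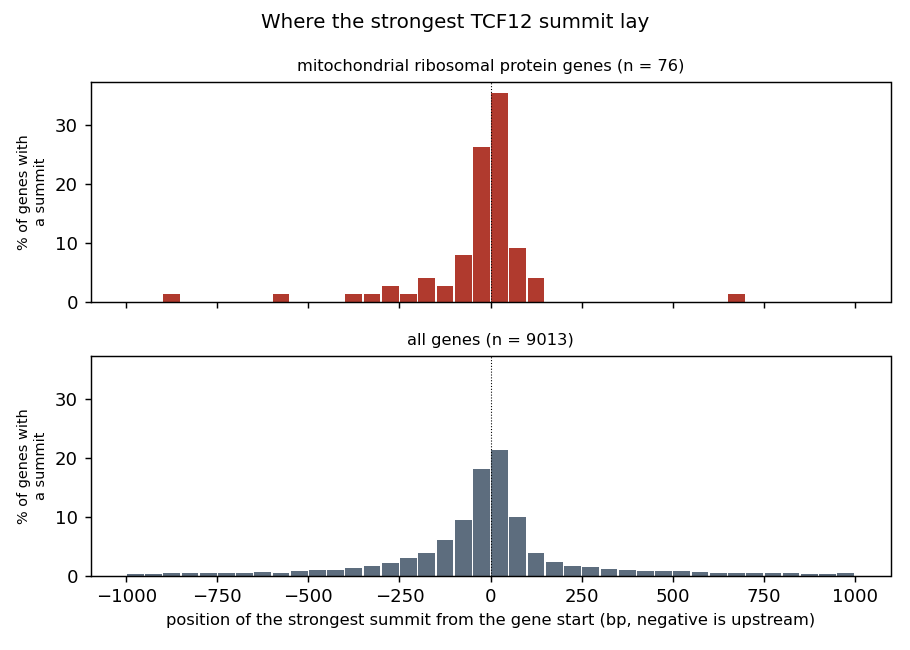
Position of the strongest optimal summit within 1 kb of the gene start, in bins of 50 bp, as a percentage of genes with a summit, for 76 mitochondrial ribosomal protein genes (upper) and 9013 of all genes (lower). Negative positions are upstream, and the bins beside the start hold a larger share in the upper plot.

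The peaks were strong as well as frequent. The strongest summit within 1 kb had a median signal of 85.5 over the 76 genes (range 18.1 to 331; quartiles 57.8 and 121), against 55.3 over the 9013 genes of all genes. Of the 76, 58 were above that median of all genes and 18 at or below it. A signal above 90.6, the level that 20% of all genes with a summit exceed, was reached by 35 of 76 (46.1%). The IDR score was at its highest value of 1000 in 74 of 76 (97.4%), against 78.2% of the promoter peaks of all genes. The exceptions were Mrps16, with a score of 580, and Mrpl14, with 935. Cytoplasmic ribosomal protein genes were stronger still, at a median of 137, while complex I genes, at 92.5, and the other mitochondrial translation genes, at 84.8, were near the mitochondrial ribosomal protein genes.

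**Figure D3:**
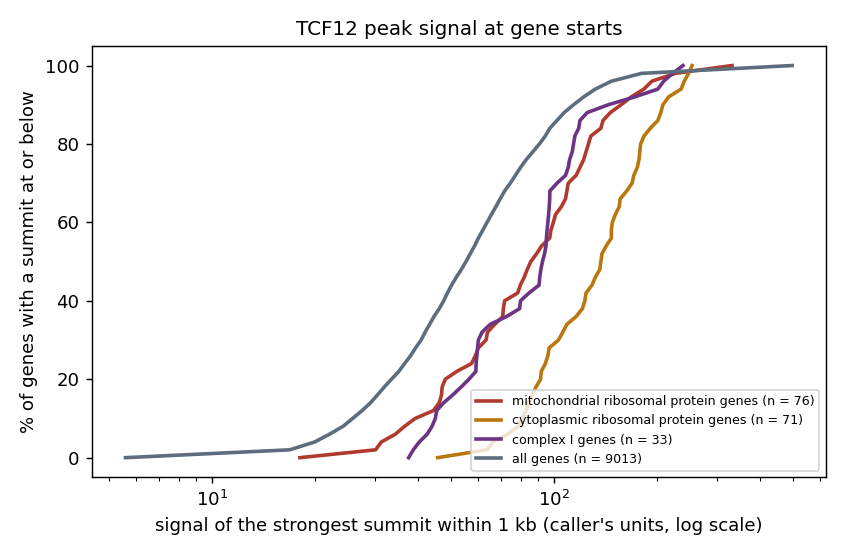
Cumulative percentage of genes against the signal of their strongest summit within 1 kb, in the caller's units on a log axis, for mitochondrial ribosomal protein genes (n = 76), cytoplasmic ribosomal protein genes (n = 71), complex I genes (n = 33) and all genes (n = 9013). The curve of the mitochondrial ribosomal protein genes (median 85.5) runs beside that of complex I (92.5) and to the right of that of all genes (55.3).

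Mrps7, NCBI gene 50529, had the strongest peak. It encodes a protein of the small subunit head and is the counterpart of bacterial S7, which helps to organise the ribosomal RNA of the head. The peak covered chr11:115603977-115604332 (mm10), and its summit fell on the annotated start. Its signal was 331, above 99.9% of the promoter peaks of all genes, with 191 in replicate 1 and 138 in replicate 2. A weaker summit with a signal of 36.6 lay 4508 bp downstream. The start of Gga3, which encodes a sorting adaptor of the Golgi, lies 224 bp away in the opposite direction, so the same summit lies within 1 kb of both starts.

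The next in strength were genes of the large subunit. Mrpl39, which has no bacterial counterpart, had a signal of 230, with 130 and 98.3 in replicates 1 and 2, and its summit was 37 bp upstream of the start. Mrpl1, the counterpart of the bacterial protein of the mobile L1 stalk, had 221, with 121 and 99.5. Mrpl32, whose precursor in yeast and mouse is cut by the m-AAA protease of the inner membrane before it joins the ribosome, had 193, with 128 and 67.8. Its summit lay 231 bp upstream, beyond the start of the divergent gene Psma2, a proteasome subunit gene that begins 205 bp away, and so nearer to that start than to its own.

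To show what DNA these peaks sit on, promoter stretches are printed for genes with strong peaks, for promoters with a motif near the summit, and for the genes with the weakest peak and with none. Each runs from 120 bases before the start to 30 bases from the start onward, 150 bases on the strand of the gene, from RefSeq on GRCm38.p6 (mm10), with matches to the searched motifs in capitals, except CCAAT and the general CANNTG, which are left in lower case. Mrps7 lies at chr11:115604020-115604169 on the plus strand, Mrpl39 at chr16:84735215-84735364 on the minus strand, Mrpl32 at chr13:14613008-14613157 on the minus strand and Mrps27 at chr13:99344666-99344815 on the plus strand.
Mrps7: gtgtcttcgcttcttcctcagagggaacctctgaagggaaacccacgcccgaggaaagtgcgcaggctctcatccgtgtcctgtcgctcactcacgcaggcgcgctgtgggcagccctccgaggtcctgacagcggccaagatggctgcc
Mrpl39: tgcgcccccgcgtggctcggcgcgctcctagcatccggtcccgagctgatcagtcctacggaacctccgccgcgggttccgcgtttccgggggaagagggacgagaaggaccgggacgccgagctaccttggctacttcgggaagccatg
Mrpl32: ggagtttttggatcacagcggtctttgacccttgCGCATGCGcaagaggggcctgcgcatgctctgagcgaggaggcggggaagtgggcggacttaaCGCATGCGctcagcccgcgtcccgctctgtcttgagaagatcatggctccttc
Mrps27: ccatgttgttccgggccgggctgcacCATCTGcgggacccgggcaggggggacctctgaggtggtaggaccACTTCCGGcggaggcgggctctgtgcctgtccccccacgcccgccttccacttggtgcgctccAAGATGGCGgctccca
Neither the Mrps7 nor the Mrpl39 stretch holds a whole match to a searched motif, although in Mrpl39 an NRF1 motif from -124 to -117, counting the start as 0, runs across the edge of the stretch. The Mrpl32 stretch holds the palindrome CGCATGCG of the factor NRF1 in capitals at 2 places. The Mrps27 stretch holds the E-box CATCTG, then ACTTCCGG, which is the ETS motif CCGGAAGT read on the other strand, and downstream of the start AAGATGGCG, the motif of YY1.

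Mrps27, a small-subunit protein of the pentatricopeptide repeat family that binds RNA, had a signal of 187, with 98.4 and 83.9 in replicates 1 and 2. Mrpl58, a release factor homologue built into the large subunit, had 180, with 97.0 and 83.5. Mrpl12, the mitochondrial form of the stalk protein that recruits translation factors, had 168, with 98.9 and 68.4. All 3 summits lay from 21 to 25 bp upstream of the start. The large-subunit gene Mrpl55 followed at 158, with 88.2 and 68.2 and a summit 90 bp upstream.

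The 3 relatives of bacterial protein S18 had signals of 157 at Mrps18b, 146 at Mrps18a and 108 at Mrps18c, so that their median was 146. Only a single S18 relative occupies the bacterial site in a mitochondrial ribosome, and the products of the other genes sit elsewhere, that of Mrps18a in the large subunit. Mrps18b had 89.7 and 62.6 in replicates 1 and 2, and a second summit 544 bp upstream reached 112, on the side of the divergent gene Ppp1r10, which starts 756 bp away. At Mrps18a the order of the replicates was the other way, with 69.8 in replicate 1 and 78.1 in replicate 2.

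Of the remaining genes among the 15 strongest, Mrpl27 (141) belongs to the region around the peptidyl transferase centre, where peptide bonds are made, and Mrpl45 (127) to the peptide exit, where its product holds the ribosome to the inner membrane. Mrpl52 had 138 and Mrpl49 had 137, both encoding large-subunit proteins without a bacterial counterpart. Mrpl9, the counterpart of bacterial L9, had 128. Replicate 1 gave from 68.7 to 90.0 in these 5 genes and replicate 2 from 50.2 to 57.8, so the replicates did not overlap there.

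**Figure D4:**
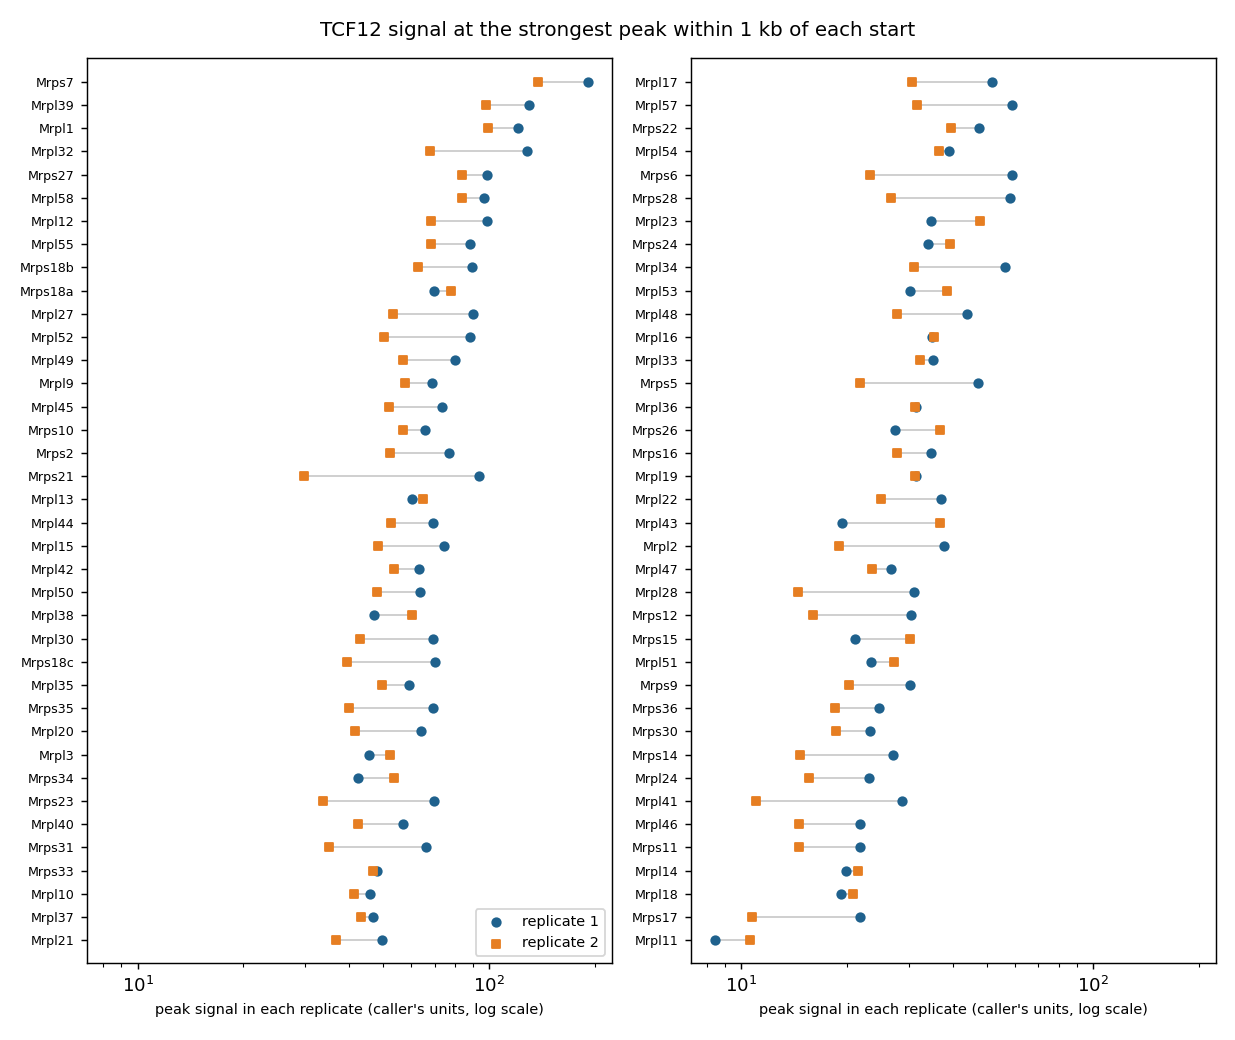
Signal in replicate 1 (circles) and replicate 2 (squares) at the strongest optimal peak within 1 kb of the start, in the caller's units on a log axis, for the 76 mitochondrial ribosomal protein genes with a peak, ordered by pooled signal from Mrps7 at the upper left to Mrpl11 at the lower right. Grey lines join the replicates of a gene, and replicate 1 is higher in 60 genes and replicate 2 in 16.

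The replicates ranked the genes alike but differed in level. At the peaks of the 76 genes the median signal was 47.7 in replicate 1 (range 8.39 to 191) and 37.6 in replicate 2 (10.6 to 138). Replicate 1 was higher in 60 of 76 (78.9%), against 84.8% of 8038 promoter peaks of all genes. The median ratio of replicate 1 to replicate 2 was 1.33, against 1.53 over those promoter peaks, and it ran from 0.526 at Mrpl43 to 3.15 at Mrps21. Mrps21 had 93.5 in replicate 1 and 29.7 in replicate 2, while Mrpl43 had 19.3 and 36.8. Across the 76 genes Spearman's rho between replicates was 0.788 and Pearson's r of the log2 signal 0.810, against 0.721 and 0.709 across the promoter peaks of all genes. These describe genes within the same pair of libraries, chosen by the IDR step for repeating ranks, and carry no p-value. Of the 15 strongest genes of each replicate, 10 were shared.

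By role in the ribosome, medians ran from 63.9 for the decoding centre to 146 for the S18 relatives given above. A role was assigned to only some of the genes, so these groups need not hold every gene of a region. The 4 measured genes assigned to the peptidyl transferase region had a median of 85.1 (54.0 to 141). Mrpl4, also assigned there although its protein lines the peptide exit tunnel in bacteria, had no summit within 1 kb. The 3 stalk genes had a median of 90.0, but spread from 168 at Mrpl12 through 90.0 at Mrpl10 to 18.1 at Mrpl11, although their products assemble next to each other. The 6 peptide exit genes had a median of 67.8 (38.9 to 127). The 5 genes assigned to the central protuberance, the part of the large subunit that faces the head of the small one, had a median of 70.8 (30.3 to 110). In the small subunit, the 3 genes assigned to the decoding centre and the channel for messenger RNA had a median of 63.9 (47.3 to 71.7). The 4 assigned to the head had a median of 86.6 (39.6 to 331). These values stand beside the 85.5 of all 76 genes.

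By symbol the medians were 87.3 for 48 Mrpl genes and 81.5 for 28 Mrps genes. Genes of the mitochondrial ribosome alone had a median of 97.8 (34.4 to 230, n = 31) and those with a bacterial counterpart 77.7 (18.1 to 331, n = 45). Both replicates gave that order, with medians of 56.9 for the first list and 45.9 for the second in replicate 1, and of 42.4 and 31.2 in replicate 2. The ranges of these lists overlap nearly throughout. Of the S18 relatives, Mrps18c alone was placed with the bacterial counterparts, while Mrps18a (146) and Mrps18b (157) were placed in the other list.

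The weakest peak was that of Mrpl11, the protein at the base of the stalk. Its signal was 18.1, with 8.39 and 10.6 in replicates 1 and 2, at 191 bp upstream of the start. Next came Mrps17 with 30, Mrpl18 with 30.3 and Mrpl14 with 31.3. Mrpl46 and Mrps11 followed with a single peak of 34.4 between them, with 21.7 in replicate 1 and 14.6 in replicate 2. Their starts face away from each other 42 bp apart on chromosome 7, so an Mrpl gene and an Mrps gene have a promoter region in common, and its peak was among the weakest of the list.

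Mrps25 was the only gene without an optimal summit within 5 kb. The nearest optimal summit was 30897 bp upstream. In the relaxed pooled list, which holds background as well as peaks, it had a signal of 20.9 at 27 bp from the start, rank 32392 of 300000. Replicate 1 alone gave 17.9 at 12 bp, rank 24669, and replicate 2 alone gave 2.82 at 273 bp, rank 218441. So the start of Mrps25 had a peak in replicate 1 that replicate 2 ranked far lower, and the IDR step did not keep it. Its relaxed pooled signal of 20.9 was above the 18.1 of Mrpl11, which was kept.

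Mrpl4, a protein that lines the upper peptide exit tunnel in bacteria, had summits within 5 kb but none within 1 kb. The strongest, with a signal of 48.9, lay 1600 bp downstream, and others of 15.5 and 8.47 lay 2436 and 2636 bp downstream. At its start the relaxed pooled list held 10.9 at 131 bp, with 5.34 in replicate 1 and 3.03 in replicate 2. This absence rests on the start chosen, which for Mrpl4 was the outer end of the RefSeq gene span. In the mm9 list Mrpl4 had a summit with a signal of 60.5 at 115 bp from the GENCODE start.

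The weakest and the absent peak are shown by the promoters of Mrpl11, at chr19:4962186-4962335 on the plus strand, and of Mrps25, at chr6:92183994-92184143 on the minus strand, and the shared promoter by the Mrps11 side of the pair, at chr7:78783011-78783160 on the plus strand.
Mrpl11: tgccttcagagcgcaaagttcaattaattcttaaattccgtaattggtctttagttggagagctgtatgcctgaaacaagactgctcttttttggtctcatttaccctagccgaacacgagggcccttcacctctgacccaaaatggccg
Mrps25: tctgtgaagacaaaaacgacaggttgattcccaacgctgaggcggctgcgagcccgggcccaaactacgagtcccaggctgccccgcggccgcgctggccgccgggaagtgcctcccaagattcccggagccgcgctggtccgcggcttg
Mrps11: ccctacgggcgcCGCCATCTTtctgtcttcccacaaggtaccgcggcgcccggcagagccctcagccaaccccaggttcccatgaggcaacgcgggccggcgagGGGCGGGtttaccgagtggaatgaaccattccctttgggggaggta
The Mrpl11 stretch holds CCAAT, read on the other strand from -78 to -74 and left in lower case, and no other searched motif. The Mrps25 stretch holds none. In the Mrps11 stretch the capitals mark the YY1 motif read on the other strand, CGCCATCTT, and GGGCGGG, the core of the SP and KLF factors.

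Most genes had a single summit. Within 5 kb, 49 genes had 1 summit and 28 had 2 or more, which is 35.9% of 78 genes against 23.6% of all 20363 genes. Counted over genes with any summit within 5 kb the order was the other way, 28 of 77 (36.4%, 26.5 to 47.5) against 47.6% of 10126. There were 6 with 3 or more, with no count over all genes to set beside them. Mrpl48 had 4, with signals of 70.8, 40.9, 27.9 and 20.3, spread over annotated starts of which RefSeq gives 4. Mrps5 also had 4, of 63.9 at the start and 34.4, 30.8 and 6.30 between 1697 and 3118 bp downstream. Its peaks of 30.8 and 6.30 overlap and share the replicate values of 20.4 and 10.3. Overlapping peaks such as these were counted as separate summits, here and among all genes. Mrpl40 had 97.8 at 565 bp upstream, 87.1 at 114 bp downstream and 41.3 at 1327 bp upstream. The divergent gene Hira starts 113 bp away, so both upstream summits of Mrpl40 lie beyond that start and nearer to it. Mrpl49 had summits of 53.8 at 3499 bp and 50.4 at 197 bp upstream besides that at its start.

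In 5 genes, with no count over all genes to set beside them, the strongest summit within 5 kb was not at the start. They were Mrpl22 (100 at 3169 bp upstream, against 57.9 at 66 bp), Mrpl36 (97.2 at 2542 bp upstream, against 63.6 at 26 bp), Mrps16 (70.0 at 4563 bp downstream, against 60.1 at 154 bp), Mrpl2 (55.4 at 4395 bp downstream, against 54.0 at 24 bp) and Mrpl4, as above. Just inside the limit of 5 kb lay summits of Mrpl12 at 4828 bp (signal 20.2) and Mrps16 at 4563 bp. Just outside it lay summits of Mrpl45 at 5409 bp (97.0) and Mrps27 at 5470 bp (36.3). The limit decided no gene's count, since each of these 4 genes also had a summit within 1 kb.

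Many of the promoters were shared with a gene on the other strand. The start of another gene, running in the opposite direction, lay within 1 kb upstream in 27 of 78 genes (34.6%), against 8.52% of all genes. The median distance between such starts was 131 bp. A summit within 1 kb was present at 27 of 27 mitochondrial ribosomal protein genes with such a neighbour and at 49 of 51 without. Among all genes the shares were 86.9% with such a neighbour and 40.3% without. Median signals were 88.9 with a neighbour and 83.3 without, and for all genes 60.3 and 54.3. In 11 of the 27, with no count over all such genes to set beside it, the strongest summit lay between both starts.

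Some of the 27 neighbours are named here, chosen after their values were seen. Others, such as Hira, Klc4, Ska3, Tcp1, Tmem63b and Zfp189, are left out. The neighbours were not counted by function, so the names do not show how common any function is among them. Mrps27 lay 108 bp from Ptcd2, which encodes a pentatricopeptide repeat protein of mitochondrial RNA processing. Mrpl43 lay 116 bp from Twnk, the mitochondrial DNA helicase, Mrpl47 308 bp from Ndufb5, a complex I subunit, and Mrps12 147 bp from Sars2, the mitochondrial seryl-tRNA synthetase. Mrpl49 lay 192 bp from Fau, whose product is processed into a cytoplasmic ribosomal protein. Mrpl27 and Mrps34 lay 48 and 33 bp from Eme1 and Eme2, related genes of DNA repair endonucleases, and Mrps18c lay 159 bp from Helq, a DNA helicase. A peak at such a site cannot be assigned to a single gene of the pair.

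Chromosome 11 held 11 of the 78 genes and 6 of the 15 strongest. The median promoter signal of the genes there was 127, against 80.2 on the other autosomes. All genes showed the same order, with medians of 73.4 on chromosome 11 and 53.8 elsewhere, and with a summit within 1 kb at 54.3% of genes there against 43.4% elsewhere. Whether the copy number of the chromosome in this line takes part in these values was not tested.

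E-boxes stood in a share of these promoters close to that of other promoters. In the 300 bases from 250 before to 50 from the start onward, which RefSeq gives for 69 of the 78 genes, CAGCTG or CACCTG, the forms best known for E proteins, stood on either strand in 27.5% (19 of 69, Wilson interval 18.4 to 39.0). All 16457 promoters of the same length held them in 31.5%, and the 7450 of these with a summit within 1 kb in 28.1%. Any CANNTG, which takes in all the E-boxes named here, stood in 62.3%, against 68.4% of all promoters and 61.7% of those with a summit. CATCTG stood in 10.1%, against 14.9% and 11%, and CACGTG in 7.25%, against 7.97% and 11%. Where a gene had several starts, a single window was used, but it was not chosen alike. For a member with a summit it was that of the start nearest the strongest summit, and for other genes that nearest the outer end. The summit of another gene could thus lie at a start other than that of its window, also in the motif and CpG comparisons below.

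Motifs of ETS factors, YY1 and NRF1 had higher shares in this list than among all promoters. CCGGAAGT, the motif of ETS factors, stood in 17.4% (12 of 69, 10.2 to 28), against 5.45% of all promoters and 10.6% of those with a summit. AAGATGGCG, the motif of YY1, stood in 11.6% (8 of 69, 5.99 to 21.2), against 1.92% and 3.85%. CGCATGCG, the motif of NRF1, a regulator of nuclear genes for mitochondria, stood in 10.1% (7 of 69, 5.0 to 19.5), against 2.59% and 4.77%. GGGCGGG stood in 42.0%, against 34.7% and 49.6%, and CCAAT in 39.1%, against 39.1% and 39.7%. TGACGTCA, the motif of CREB factors, stood in 2.90%, against 2.40% and 3.84%, and ACTACAATT, from the motif of ZNF143, in none of the 69, which allows up to 5.27% by the Wilson interval. CGATCG, a palindrome searched as a control, stood in 2.90%, against 1.54% and 2.17%. CANNTG takes in the 4 E-boxes, and no other searched motif contains another, although neighbouring matches can overlap at their ends. A match is a run of letters, not a bound site, and expression was not used to match the promoters.

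**Figure D5:**
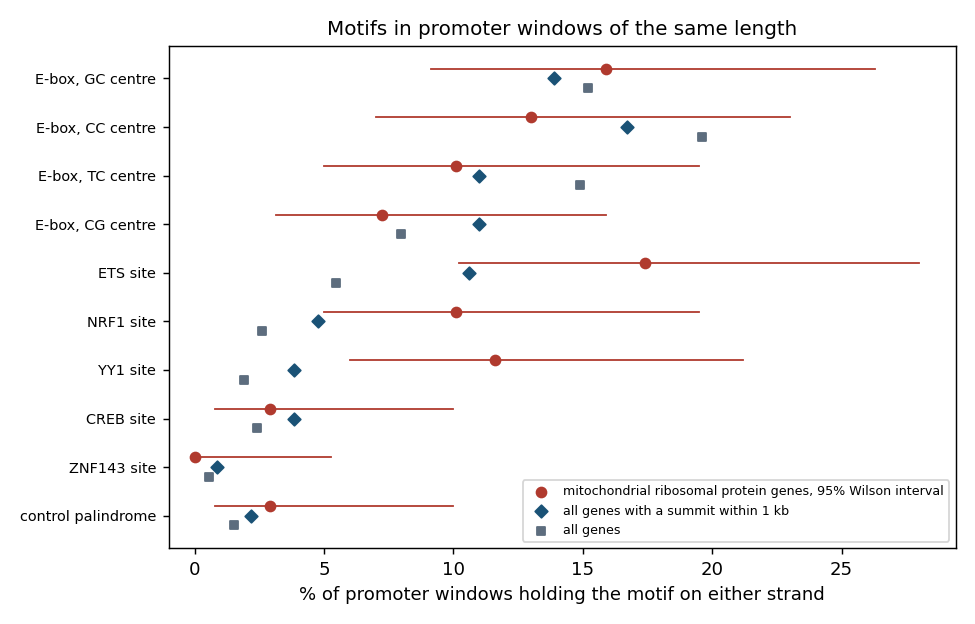
Percentage of promoter windows of 300 bases that hold each motif on either strand, for 69 mitochondrial ribosomal protein genes with 95% Wilson intervals (circles), for 7450 promoters of all genes with a summit within 1 kb (diamonds) and for all 16457 promoters (squares). The E-boxes named in the text are labelled by their central bases, and the ETS, NRF1 and YY1 motifs lie at 17.4%, 10.1% and 11.6% in the mitochondrial ribosomal protein genes, to the right of the other marks.

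The promoters were rich in CpG. Observed over expected CpG had a median of 0.818 in the 69 windows, against 0.804 in those of all genes with a summit and 0.597 in all windows. The GC content was 58.0%, against 61.3% and 56.7%. A ratio above 0.6 was found in 63 of 69 windows (91.3%), against 79.9% of those of all genes with a summit and 49.8% of all windows. Of these 63 genes 62 had a summit within 1 kb (98.4%), against 72.7% of 8189 genes with such a window, and the medians of the signal were 84.4 and 58.1.

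Of the promoters with CAGCTG or CACCTG among the 15 strongest genes, 4 are shown because these are the letters that TCF12 is known to read. They are Mrpl55 at chr11:59202366-59202515 on the plus strand, Mrps18a at chr17:46110884-46111033 on the plus strand, Mrpl9 at chr3:94443216-94443365 on the plus strand and Mrpl27 at chr11:94653671-94653820 on the plus strand.
Mrpl55: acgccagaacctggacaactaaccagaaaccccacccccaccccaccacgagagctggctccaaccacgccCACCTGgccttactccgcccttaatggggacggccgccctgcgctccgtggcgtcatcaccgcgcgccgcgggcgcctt
Mrps18a: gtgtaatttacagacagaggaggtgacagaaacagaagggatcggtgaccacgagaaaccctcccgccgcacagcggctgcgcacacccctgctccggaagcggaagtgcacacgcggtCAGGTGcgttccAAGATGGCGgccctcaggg
Mrpl9: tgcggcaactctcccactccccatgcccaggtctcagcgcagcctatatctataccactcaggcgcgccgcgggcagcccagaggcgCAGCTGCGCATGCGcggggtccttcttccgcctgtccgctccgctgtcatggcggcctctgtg
Mrpl27: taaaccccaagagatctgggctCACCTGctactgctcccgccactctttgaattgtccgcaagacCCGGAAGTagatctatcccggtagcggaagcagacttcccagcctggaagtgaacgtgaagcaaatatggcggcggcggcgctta
Counting the start as 0, the CACCTG of Mrpl55 runs from -49 to -44 and the summit is at -90. In Mrps18a the E-box, read here as CAGGTG, the other strand of CACCTG, spans the start from -1 to 4, the YY1 motif follows from 11 to 19, and the summit is at 5. In Mrpl9 the CAGCTG from -33 to -28 adjoins the NRF1 motif from -27 to -20, with the summit at 9. In Mrpl27 the CACCTG runs from -98 to -93, the ETS motif from -55 to -48, and the summit is at 26, downstream of both. The other such promoters of the strongest genes, not shown, are those of Mrpl58, Mrpl52 and Mrpl45. Their nearest CAGCTG begins at -123, -121 and -111, and their summits are at -21, -15 and 131.

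Genes with an E-box in the window had the higher median signal in this list, while among all genes the medians were equal. The 19 genes with CAGCTG or CACCTG had a median signal of 108, against 77.7 for the 49 others with a summit, while over all promoters with a summit both medians were 55.9. With the NRF1 motif the medians were 128 with (n = 7) and 79.7 without, and over all promoters 62.5 and 55.4. With the YY1 motif they were 98.4 with (n = 8) and 83.4 without, and over all promoters 82.1 and 55.1. With the ETS motif they were 77.0 with (n = 12) and 85.5 without, while over all promoters they were 66.6 and 54.6. With GGGCGGG they were 71.7 with (n = 29) and 100 without, and over all promoters 53.7 and 57.9. With CCAAT they were 63.3 with (n = 26) and 92.0 without, and over all promoters 55.2 and 56.5. No test was made of these differences.

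Sequence right at the summit could be read on the mm9 build, for which a genome was used. The mm9 list of 23575 peaks, made by the authors from both replicates, had a summit within 1 kb of the GENCODE start in 68 of 78 genes (87.2%), against 36.1% of 21418 genes. Of the 68 strongest summits, 42 lay in an exon outside the coding sequence, 18 upstream of the gene, 7 in a coding exon and 1 in an intron, that of Mrpl48. The summits of all genes were not divided in this way, so these counts are not shown to be particular to the list. In 73 mm9 peaks of these genes, 9 (12.3%, 6.62 to 21.8) had CAGCTG or CACCTG no more than 50 bp from the summit. Windows of the same length 300 bp to either side of the same summits held it in 11.6%. Among 7956 mm9 promoter peaks of all genes the shares were 14.5% at the summit and 11.7% in the flanks. At these genes the E-box was thus about as frequent beside the summit as under it.

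The 9 peaks belonged to Mrpl9, Mrpl16, Mrpl21, Mrpl30, Mrpl40, Mrpl55, Mrps16, Mrps18a and Mrps31. The ETS motif behaved otherwise and was found at the summit in 8 of 73 peaks (11%) and in 0 of 146 flanks, against 6.91% at the summit and 0.522% in the flanks for all promoter peaks. The YY1 motif lay there in 6 of 73 (8.22%) and in 0 of 146 flanks, against 4.02% and 0.302%. GGGCGGG was present in 12.3% at the summit and 4.11% in the flanks, against 18.5% and 9.24%. The NRF1 motif lay in 1 of 73 peaks, that of Mrpl9, and in 1.37% of flanks, against 1.81% and 0.321% for all promoter peaks.

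Genes that act with the mitochondrial ribosome had signals within 1 kb from 15.1 to 495, with quartiles of 57.0 and 130. The mitochondrial ribosomal protein genes ran from 18.1 to 331, with quartiles of 57.8 and 121. Lrpprc, an RNA-binding protein gene that keeps mitochondrial messenger RNAs stable, had a signal of 495, above every mitochondrial ribosomal protein gene, and Slirp, whose product is its partner, had 180. Eral1, a chaperone of the small-subunit RNA, had 200, Mtg1, a GTPase of large-subunit assembly, 182, and Mrm3, a methyltransferase of the large-subunit RNA, 179. Gtpbp10, another GTPase of assembly, and Mtif3, an initiation factor of mitochondrial translation, had no optimal summit within 5 kb. Tufm, the mitochondrial elongation factor Tu, had only a summit of 32 at 4832 bp upstream, and Mtrf1l, a release factor, a summit of 18.9 at 1201 bp upstream. In all, 45 of these 47 genes had a summit within 5 kb.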

How the data were processed

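TCF12 ChIP-seq peaks of 2 biological replicates of CH12.LX, which form 1 group, were used. Per the deposited file descriptions, the authors called relaxed lists of 300000 peaks on mm10 for each replicate and for both pooled, with a control alignment, and took the optimal (35848) and conservative (35530) lists from these by IDR. For the mm9 list the authors used the alignments of both replicates. Which aligner and peak caller they ran is not given in the sources used here. The signal is the authors' caller value, deposited with no stated scaling, and only ranks peaks within a list. The score is the deposited scaled IDR score, and values from 830 stand for an IDR up to 0.01. Depth is unknown, and Wilson intervals cover counting error only.

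Members, gene lists, motifs and distances were chosen with earlier results of these data known. Of 21631 genes in the RefSeq table of GRCm38.p6, 21317 had a strand. Starts came from the RefSeq promoter table (69 of 78 members) and otherwise from the outer end of the gene span, with the strand from GENCODE vM1 by symbol (9 members). Distances run from the nearest annotated start to the summit. A replicate's value at a peak is that of its strongest overlapping relaxed peak (at least 1 bp), so neighbouring peaks can share it. Motifs were searched as exact letters on both strands. No coordinate was converted between builds, and mm9 sequence came from NCBIM37.

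The genes named are the 15 strongest members, the 5 weakest, those with no summit or one beyond 1 kb, those around 5 kb, up to 10 with several summits, their neighbours at shared starts and, of the other mitochondrial translation genes, the 5 strongest and those with none. Other members, neighbours and the 11 printed promoters were picked after their values were seen. Alternatives were the conservative list, an IDR of 0.01, each replicate alone, the mm9 list, other distances, peak overlap, other motif windows and, added after seeing the data, the outer end of every gene span as the start. Counting was checked on simulated peaks. Python 3.11.15, numpy 2.4.6, scipy 1.17.1, statsmodels 0.14.6 and matplotlib 3.10.9 were used.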

Additional observations from a re-analysis of the deposited data

How the results depend on the processing

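The number of genes with a summit within 5 kb was 77, and 76 or 77 under the conservative list, the stricter IDR, either replicate alone, 2 or 10 kb, peak overlap and the outer end of the gene span, but 69 in the mm9 list. Within 1 kb it was 76, and 75 or 76 under those alternatives and 500 bp, but 71 with the outer end of the span and 68 in the mm9 list. The outer end lies away from the promoter table's start by 10282 bp at Mrps23 and by 1413 to 2115 bp at Mrpl18, Mrpl22, Mrpl24 and Mrps2, and these 5 genes were lost. The median signal within 5 kb, 88.9, was 38.4 without replicate 1 and 49.6 without replicate 2, the pooled signal being close to the sum of both (0.988 of it at the median), and 118 in the mm9 list, whose scale may differ and whose lowest signal is 30 against 5.57 in the optimal list. Other settings gave 83.5 to 89.4. The share of mm9 peaks with CAGCTG or CACCTG, 12.3% within 50 bp, was 4.11% within 25 bp and 27.4% within 100 bp, windows that hold fewer and more bases, and 13.2% over the strongest peak of each gene. No paired analysis was possible because the replicates form 1 group. Read depth is unknown, so peaks missed for lack of reads cannot be told apart from absent ones.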

Other observations

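The mm9 list had no summit within 1 kb of the GENCODE start for 10 genes, namely Mrpl33, Mrpl46, Mrpl47, Mrpl49, Mrpl53, Mrps11, Mrps12, Mrps14, Mrps24 and Mrps25. Of these, Mrps25 alone lacked an optimal mm10 summit. The mm10 signals of the other 9 ran from 34.4 at Mrpl46 and Mrps11 to 137 at Mrpl49, so the strong peak at the start of Mrpl49 has no counterpart there, and the nearest mm9 summit lay 3485 bp upstream. At Mrps24, Mrpl53 and Mrpl33 the nearest mm9 summit lay 8003, 6381 and 17042 bp downstream of the GENCODE start. Why the lists differ was not tested.

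Fastkd2, a mitochondrial RNA-binding protein gene of ribosome assembly, had the weakest optimal summit of the other translation genes, 15.1 at 306 bp upstream. The strongest relaxed peaks that overlap its peak had 19.4 in replicate 1 and 21.1 in replicate 2, each above 15.1. Whether these replicate values belong to this summit or to a neighbouring one was not tested. The relaxed pooled list held a stronger value of 43.4 within 1 kb of the start of Fastkd2 that the IDR step did not keep. Mtif3, with no optimal summit, had 28.4 in the relaxed list. At Mrpl41, where the strongest optimal summit was 36.6 at 856 bp upstream, the relaxed list held 41.3 at 174 bp. Among genes of mitochondrial transcription, Tfam and Tfb2m, whose products start transcription, had summits of 70.7 and 48.2, and Polrmt, the mitochondrial RNA polymerase, one of 56.8.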
